A study of Mus musculus with 8 samples.

Results

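The transcription factors Etv1, Etv4 and Etv5 form the PEA3 group of the ETS family. The 3 genes were chosen by name from the 55573 genes counted, after their levels in all 8 libraries and the comparison of KO with WT within each sex had been seen. Those comparisons had placed Etv1 higher in KO males and lower in KO females. The levels and fold changes of the 3 genes are therefore given as a description, with no test. All 3 were found in the count table. Etv1 and Etv5 passed the filter on low counts, and Etv4 did not.

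The RNA came from C low-threshold mechanoreceptors (C-LTMRs), the sensory neurons of hairy skin that respond to gentle touch, isolated by fluorescence-activated sorting of GFP-positive cells from adult mice. The mice were WT or carried a KO of bhlha9, which encodes a factor of the basic helix-loop-helix class. Male WT, male KO, female WT and female KO mice gave 2 libraries each, which the submitters call biological replicates. The title of the series concerns temperature choice, formalin-evoked pain and a difference between the sexes. The strain, the exact age, the allele that carries GFP and the design of the KO allele are not given in the sources used here. All 4 groups share the GFP label.

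PEA3 factors bind DNA through an ETS domain that recognises a GGAA core. Receptor tyrosine kinases that signal through RAS and ERK raise both their transcription and their activity, the repressor CIC holds their genes silent, and the COP1 ubiquitin ligase marks the proteins for breakdown. In sensory ganglia, Etv1 (also called Er81) is known for its role in the central connections of proprioceptive neurons, while Etv4 (Pea3) and Etv5 (Erm) are known as targets of neurotrophic signals.

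The libraries held between 50919885 and 71956309 counts assigned to genes. The targeted gene Bhlha9 stood at 151 and 161 CPM (read counts scaled to an equal library size) in replicates 1 and 2 of male WT, at 140 and 127 CPM in female WT, and between 0.156 and 0.47 CPM in the 4 KO libraries. C-LTMR markers were detected in every library, with 0 of the 12 listed markers at 0 counts in any of them. Th, which encodes tyrosine hydroxylase, lay between 2980 and 5360 CPM. Male KO replicate 1 held the lowest summed level of the 12 C-LTMR markers, 5220 CPM, against 7110 to 9420 CPM in the other 7 libraries. It also held the highest level of myelinated afferent markers. Many counts and differences that this library moves by much are also given without it, or with the level in each library.

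The deposited coordinates place Etv1 (ENSMUSG00000004151) on GRCm38 chromosome 12, from 38779380 to 38870484 on the plus strand, with 13296 bases of merged exons. Etv4 (ENSMUSG00000017724) lies on chromosome 11, from 101769742 to 101785371 on the minus strand, with 3104 bases of exons. Etv5 (ENSMUSG00000013089) lies on chromosome 16, from 22381309 to 22439719 on the minus strand, with 4103 bases of exons. No other annotated gene overlaps any of the 3 spans, so unstranded counting adds no reads of a partner gene to them.

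RefSeq start sites on GRCm38.p6 were matched for 2 of the 3 genes, Etv1 and Etv5. The sequences before these starts are shown because the deleted gene encodes a helix-loop-helix protein, a class that binds the E-box CANNTG, and because PEA3 factors read GGAA. Each run is written 5′ to 3′ on the strand of its gene and holds only bases outside the annotated exons of that gene. Capitals mark E-boxes and GGAA cores (TTCC where the core is on the other strand).
Etv1, chr12:38779832-38780081, plus strand: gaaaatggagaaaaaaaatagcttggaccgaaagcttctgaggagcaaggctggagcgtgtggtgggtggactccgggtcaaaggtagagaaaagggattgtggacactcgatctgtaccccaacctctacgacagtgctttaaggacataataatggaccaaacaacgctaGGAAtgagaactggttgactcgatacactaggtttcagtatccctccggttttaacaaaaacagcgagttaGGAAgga
Etv5, outer start, chr16:22439720-22439820, minus strand: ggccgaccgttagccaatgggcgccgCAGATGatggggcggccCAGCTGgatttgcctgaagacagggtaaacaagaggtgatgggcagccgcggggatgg
Etv5, inner start, chr16:22438369-22438618, minus strand: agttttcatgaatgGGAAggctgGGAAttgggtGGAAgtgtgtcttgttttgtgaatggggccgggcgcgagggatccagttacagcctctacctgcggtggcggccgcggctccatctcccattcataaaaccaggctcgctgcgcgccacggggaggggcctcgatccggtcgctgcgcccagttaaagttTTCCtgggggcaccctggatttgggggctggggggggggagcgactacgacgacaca
The Etv1 run held 2 GGAA cores and 0 E-boxes. A second Etv1 window, at chr12:38783461-38783710, lies mostly in an exon and is not printed; it held 3 E-boxes and 1 GGAA core. The outer Etv5 run held 2 E-boxes, spelled CAGATG and CAGCTG, and 0 GGAA cores, and the inner one held 4 GGAA cores and 0 E-boxes. Among 32851 windows of the 250 bases before RefSeq starts, 66.2% held a CANNTG and 93.4% a GGAA, with both strands read. The printed outer Etv5 run is shorter than those windows. The CIC octamers TGAATGAA and TGAATGGA, the second of which can share its last bases with a GGAA, were in 1.08% and 1.01% of all windows and in none of the 4 windows of Etv1 and Etv5. A match is a string of letters in these windows and says nothing of binding.

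Etv1 was higher in KO males and lower in KO females than in WT of the same sex. In male WT it stood at 2.74 and 1.38 CPM in replicates 1 and 2, from 173 and 88 reads. In male KO it stood at 42.2 and 6.01 CPM, from 2436 and 390 reads. Both male KO libraries were above both male WT libraries, and replicate 1 of male KO held the highest Etv1 level of all 8. In female WT the levels were 8.12 and 22.3 CPM, from 460 and 1410 reads. In female KO they were 0.215 and 0.211 CPM, from 11 and 15 reads. Both female KO libraries were below both female WT libraries, and they held the lowest Etv1 levels of the series.

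The means were 2.06 ± 0.962 CPM in male WT, 24.1 ± 25.6 in male KO, 15.2 ± 10.1 in female WT and 0.213 ± 0.0033 in female KO (SD, n = 2 each). On the log2 scale the fitted difference of Etv1 between KO and WT was 3.55 (SE 1.01) in males and -6.15 (SE 1.16) in females. These are 11.7-fold higher in male KO and 70.9-fold lower in female KO. The male difference minus the female one was 9.69 (SE 1.53). In bulk RNA, fewer cells that express a gene and less of its RNA per cell cannot be told apart.

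The size of the male difference rested on 1 library. Without male KO replicate 1 it was 1.54, and over all single omissions it lay between 1.54 and 4.33, always positive. Leaving out 1 library at a time kept the female difference between -6.70 and -5.24. With both male KO replicate 1 and female WT replicate 2 left out, the libraries highest in Etv1, the differences were 1.54 in males and -5.23 in females. That omission was chosen after the values were seen.

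Ordered from low to high, the Etv1 levels ran female KO, male WT, male KO replicate 2, female WT and male KO replicate 1. The 2 female KO libraries differed 1.02-fold from each other, those of male WT 1.98-fold, those of female WT 2.75-fold and those of male KO 7.02-fold. The female KO levels rest on 11 and 15 reads, so counting error limits what their closeness shows. Male KO and female WT overlapped, since both female WT levels lie between the 2 male KO levels. Within WT, both female libraries were above both male ones. Within KO, both male libraries were above both female ones.

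**Figure D1:**
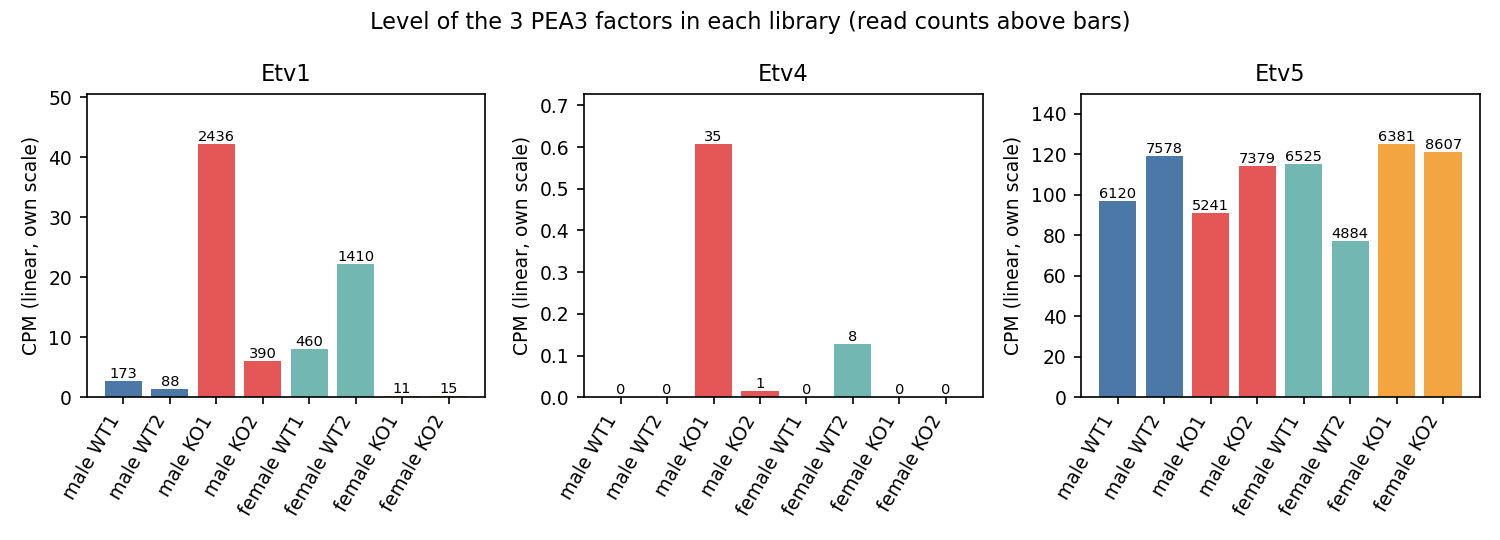
Level of Etv1, Etv4 and Etv5 in each of the 8 libraries, as CPM on a linear scale of its own for each gene, 1 bar per library coloured by group, with the read count above each bar. Etv1 ranges from 0.211 to 42.2 CPM, Etv4 has reads in 3 libraries, and Etv5 stays between 77.4 and 125 CPM.

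The bars show how unlike the 3 genes are: a highly uneven Etv1, a nearly empty Etv4 and an even Etv5. Etv4 had 35 reads in male KO replicate 1 and 1 read in replicate 2. It had 8 reads in female WT replicate 2. The other 5 libraries had 0 reads of Etv4, which allows up to 3 reads, or 0.0421 to 0.0587 CPM over the depths of the 8 libraries. In CPM, Etv4 reached 0.607 in male KO replicate 1, 0.127 in female WT replicate 2 and 0.0154 in male KO replicate 2. The highest 2 values fell in the same 2 libraries that were highest in Etv1. Summed over each group, with a group at 0 set to 3 reads, Etv4 was 12.4-fold higher in male KO than in male WT. On the same basis it was 2.73-fold higher in female WT than in female KO. These ratios leave out the counting error of the 36 male KO and 8 female WT reads themselves. Of the male KO reads, 97.2% came from replicate 1, and all the female WT reads came from replicate 2. The limit of 3 reads covers counting error only, because the libraries were amplified by PCR and no molecular identifiers are described.

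Etv5 was read from 4884 to 8607 times per library. In male WT it stood at 97.1 and 119 CPM, and in male KO at 90.8 and 114 CPM. The male groups overlapped. In female WT it stood at 115 and 77.4 CPM, and in female KO at 125 and 121 CPM. Both female KO libraries were above both female WT libraries, the nearest pair being 115 and 121 CPM. The fitted log2 difference was -0.08 (SE 0.24) in males and 0.35 (SE 0.24) in females, and the male one minus the female one was -0.43 (SE 0.34). Without female WT replicate 2, the lowest library of the series for Etv5, the female difference was 0.09. The male difference turned to 0.07 without male KO replicate 1 and to 0.04 without male WT replicate 2. Etv5 differed at most 1.61-fold between any 2 libraries, against 200-fold for Etv1. Within that narrow range Etv5 ran against Etv1. The Pearson correlation of their log2 CPM over the 8 libraries was -0.76, a description with no test. Etv5 was lowest in female WT replicate 2 and male KO replicate 1, the libraries highest in Etv1, and highest in female KO.

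Per length of exon, Etv5 was the most abundant of the 3 in every library. Etv5 lay between 18.9 and 30.4 CPM per kb, with a mean of 26.2. Etv1 lay between 0.0158 and 3.18 CPM per kb, with a mean of 0.783. Etv4 reached 0.195 CPM per kb at most. The ratio of Etv5 to Etv1 on this scale was 115 and 279 in male WT, 6.97 and 61.3 in male KO, 46 and 11.2 in female WT, and 1880 and 1860 in female KO. The ratio was thus smallest in male KO replicate 1 and largest in female KO. The summed CPM of the 3 genes stayed between 99.8 and 134.

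**Figure D2:**
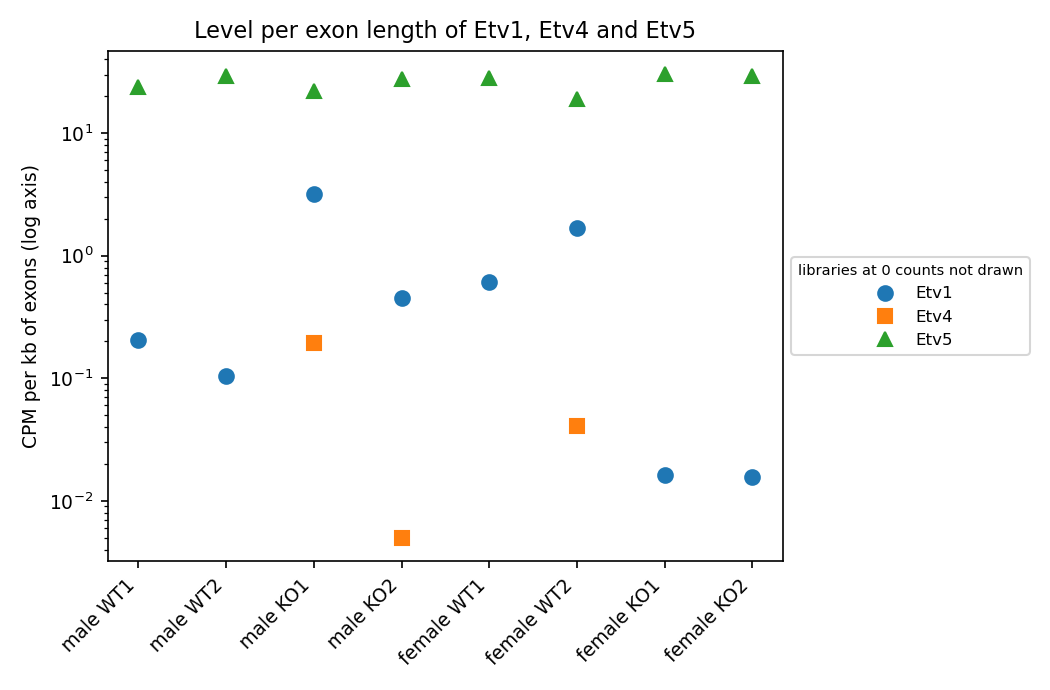
CPM per kb of merged exons on a log axis for Etv1 (circles), Etv4 (squares) and Etv5 (triangles) in each of the 8 libraries; libraries with 0 reads of Etv4 have no square. Etv5 lies at 18.9 to 30.4 in all libraries, above Etv1 at 0.0158 to 3.18.

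The triangles form a flat upper band, while the circles for Etv1 move over several steps of the log axis. Where Etv4 is drawn it lies below Etv1.

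The authors' deposited tables of genes past their 5% threshold list Etv1 in both sexes and neither Etv4 nor Etv5. In the authors' deposited table for males, Etv1 has a log2 fold change of 1.39 (SE 0.37) and an adjusted p of 0.026. In the authors' deposited table for females, it has -1.61 (SE 0.27) and an adjusted p of 1.73e-05. In the authors' deposited tables the mean of normalised counts of Etv1 is 800 for males and 457 for females. The authors' fits thus differ from the fit of all 8 libraries used above, and the sizes of the fold changes are not compared. The authors' deposited tables hold 150 genes for males and 13 for females. Only Etv1 and Bhlha9 are in both, which is 1.33% of the male and 15.4% of the female table in the authors' deposited tables. The authors' deposited table gives Bhlha9 at -7.4 in males and -6.05 in females.

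The quasi-likelihood test of edgeR over 22013 genes called 1 gene in males (0.00454%) and 1 in females (0.00454%), Bhlha9 each time, at an adjusted p below 0.05. For the difference between the sexes edgeR called 0 genes (0%). Of the 3 PEA3 genes it called none. At an unadjusted p below 0.05 edgeR had 770 genes in males (3.5%), 838 in females (3.81%) and 1041 for the difference between the sexes (4.73%). DESeq2 called 166, 167 and 217 genes, Etv1 among them each time and Etv5 in none. Because Etv1 was chosen on these comparisons, nothing is read from those calls.

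Groups of 2 libraries often fail to overlap. Of the genes tested, 14.5% had both male KO libraries above both male WT ones and 14.5% had both below. In females 14.2% had both KO libraries above and 15.1% below. A positive log2 difference was found for 51.9% of the genes tested in males and 49% in females. For the male minus the female difference it was 51.3%. These are the shares to set beside the counts of the lists below. The pattern of Etv1, higher in male KO and lower in female KO with no overlap in either sex, was met by 580 genes (2.63%). The opposite pattern was met by 471 (2.14%). Among the 580, 309 had a mean of at least 5 CPM, and Etv1 ranked 5th of these by the size of the difference between the sexes. The 4 genes ranked above it, singled out after their values were seen, were Slc17a7, Dcn, Gpx3 and Ly6e. Slc17a7 encodes a vesicular glutamate transporter, Dcn the matrix proteoglycan decorin, and Gpx3 a secreted glutathione peroxidase. Dcn and Ly6e had 0 reads in both female KO libraries, so their fitted differences depend on the prior count of the fit.

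Upstream of the PEA3 factors stand the receptors for growth factors. Of 19 listed receptors 15 were tested, and none passed edgeR in either sex or for the difference between them. In males 12 of 15 had a positive log2 difference, with a median of 0.94 against 0.02 over all genes tested. In females 9 of 15 were positive, with a median of 0.24 against 0. With both libraries highest in Etv1 left out, the numbers of positive receptors were again 12 and 9. Without female KO replicate 2 the female number was 4, and over single omissions the male number lay between 9 and 12. The list shares 6 genes with the cell type marker lists, among them Ret, Gfra2, Ntrk2, Ntrk3 and Kit.

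Ret, the signalling receptor for the GDNF family and itself a C-LTMR marker, was high throughout. Its levels were 1100 and 1300 CPM in male WT, 750 and 1150 in male KO, 1070 and 999 in female WT, and 1040 and 1400 in female KO. Groups of Ret overlapped in both sexes. Gfra2, the neurturin coreceptor of Ret, lay between 289 and 609 CPM and its groups also overlapped.

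Gfra1, the GDNF coreceptor, moved as Etv1 did. It stood at 0.761 and 0.77 CPM in male WT and at 59 and 7.66 in male KO. In female WT it stood at 6.62 and 14.5 CPM and in female KO at 3.23 and 0.941. Male KO was above male WT and female KO below female WT in every library. The log2 difference of Gfra1 was 5.44 (SE 1.18) in males and -2.34 (SE 1.03) in females, and neither passed (edgeR adjusted p = 1). Without male KO replicate 1 the male value was 3.32. The male minus the female difference was 7.78 (SE 1.55, edgeR adjusted p = 0.98).

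Gfra3, the artemin coreceptor found in peptidergic neurons, stood at 14.4 and 1.73 CPM in male WT and at 28.5 and 37 in male KO. It stood at 17.4 and 45 CPM in female WT and at 1.7 and 0.337 in female KO. Its groups did not overlap in either sex and lay in opposite order. The log2 difference of Gfra3 was 2.02 (SE 1.10) in males and -4.95 (SE 1.26) in females (edgeR adjusted p = 1 for each). The male value was 4.24 without male WT replicate 1 and 1.15 without male WT replicate 2.

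Kit, the receptor for stem cell factor, was at 7.83 and 12.8 CPM in female WT and at 0.94 and 0.337 in female KO, a log2 difference of -4.02 (SE 1.17, edgeR adjusted p = 1). Its male groups overlapped, at 7.83 and 2 CPM in WT and 2.51 and 16.3 in KO. Whether Kit differs between the sexes was tested, at 4.95 on the log2 scale with an edgeR adjusted p of 0.98.

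None of the neurotrophin receptors Ntrk2, Ntrk3 and Ngfr had non-overlapping groups in opposite order in the sexes. Ntrk3, the receptor for neurotrophin 3, lay between 133 and 266 CPM with overlapping groups in both sexes. Ntrk2, the receptor for BDNF, lay between 25.9 and 58.6 CPM. The shared neurotrophin receptor Ngfr stayed between 59.8 and 85.4 CPM and overlapped in both sexes. Fgfr1, a receptor for fibroblast growth factors, overlapped in males and was lower in female KO, at 41.8 and 58.7 CPM against 79.2 and 67.6. Erbb3, a neuregulin receptor common in Schwann cells, was at 0.825 and 0.314 CPM in male WT and 5.91 and 3.38 in male KO, and its female groups overlapped.

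Of 18 listed ligands 13 were tested and none passed in any comparison. In males 11 of 13 were positive with a median of 0.47, and 9 of 13 without male KO replicate 1, and in females 9 of 13 with a median of 0.34. Fgf9, a fibroblast growth factor, stood at 2.71 and 2.55 CPM in male WT and at 27.3 and 4.01 in male KO. Its male log2 difference of 2.57 (SE 0.90) became 0.61 without male KO replicate 1. Bdnf, brain-derived neurotrophic factor, stood at 6 and 5.38 CPM in male WT and 25.1 and 13.9 in male KO, and its female groups overlapped. Fgf2 and Nrg2 were higher in female KO without overlap, by 0.92 (SE 0.64) and 0.43 (SE 0.33) on the log2 scale. Nrg1, neuregulin 1, ranged from 49.4 to 99.1 CPM. Fgf13, an intracellular member of its family that binds sodium channels, ranged from 188 to 466 CPM. Ntf3 had reads in 1 library, at 0.11 CPM, and was not tested.

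The 23 genes of the RAS-ERK cascade were all tested and none passed. Their median log2 difference was 0.01 in males and -0.04 in females, close to the medians over all genes. Mapk3, which encodes ERK1, was higher in male KO (894 and 910 CPM) than in male WT (856 and 765) and lower in female KO (824 and 986) than in female WT (1230 and 1080). The differences of Mapk3 were small, 0.15 (SE 0.16) and -0.35 (SE 0.16), with 0.50 between the sexes (SE 0.23, edgeR adjusted p = 0.98). Rps6ka1 and Rps6ka3, kinases that ERK activates, had male differences of 1.42 (SE 1) and 0.74 (SE 0.38). Rps6ka1 stood at 9.1 and 7.18 CPM in male WT and at 30.5 and 13.1 in male KO. Rps6ka3 stood at 17.6 and 16.6 CPM in male WT and at 37 and 20.1 in male KO. For both genes the higher male KO level was that of replicate 1. Nf1, which encodes the RAS inhibitor neurofibromin, was at 20 and 10.1 CPM in female KO against 3.55 and 2.72 in female WT, and Gab1, an adaptor of receptor kinases, was higher there by 0.72 (SE 0.40).

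Feedback inhibitors of ERK signalling are textbook targets of the pathway that also drives PEA3 genes. Of 16 listed 15 were found and 14 tested, and none passed. In males 7 of 14 were positive, and with male KO replicate 1 left out 1 of 14 was. In females 7 of 14 were positive with or without the libraries highest in Etv1. In males 5 of 14 had both KO libraries below both WT ones, against 14.5% of all genes.

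Spry4, a Sprouty inhibitor of RAS signalling, stood at 60.4 and 74.8 CPM in male WT, 34.8 and 45.2 in male KO, 46.3 and 47.2 in female WT, and 41.4 and 66.1 in female KO. It was lower in male KO without overlap, by a log2 difference of -0.76 (SE 0.28, edgeR adjusted p = 1). Il17rd (Sef), a membrane inhibitor of FGF signalling, was at 14.1 CPM in both male WT libraries and at 9.41 and 5.61 in male KO. Spred1, an inhibitor of RAF activation, was lower in KO in both sexes, at -0.54 (SE 0.45) in males and -1.09 (SE 0.46) in females. Its levels were 19 and 18.2 CPM in male WT, 12.5 and 13.1 in male KO, 30.8 and 18.1 in female WT, and 7.09 and 15.9 in female KO. Thus Spry4 and Il17rd were lower in male KO, where Etv1 was higher than in male WT, and Spred1 was lower in KO of both sexes. Female WT replicate 2, the next in Etv1 after male KO replicate 1, held the highest Il17rd of the series (18.6 CPM) and Spry4 at 47.2 CPM. Spry1, of the same list, stood at 0.247 and 7.35 CPM in female WT and at 0 in both female KO libraries. Its male groups overlapped, at 0.0634 and 0.55 CPM in WT and 2.96 and 0 in KO. Spry1 was thus highest in female WT replicate 2 and next in male KO replicate 1, the libraries highest in Etv1.

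Dusp6, the ERK phosphatase, stood at 66.8 and 67.8 CPM in male WT, 76.6 and 64 in male KO, 25 and 27.5 in female WT, and 39.2 and 68.3 in female KO. It was higher in female KO without overlap, by 1.03 (SE 0.29, edgeR adjusted p = 1), in the libraries with the least Etv1. Dusp4 was also higher in female KO, by 1.38 (SE 0.88). Spry2 overlapped between groups, from 12.7 to 30.7 CPM. Spred2 ranged from 32.1 to 56.1 CPM and overlapped in both sexes.

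**Figure D3:**
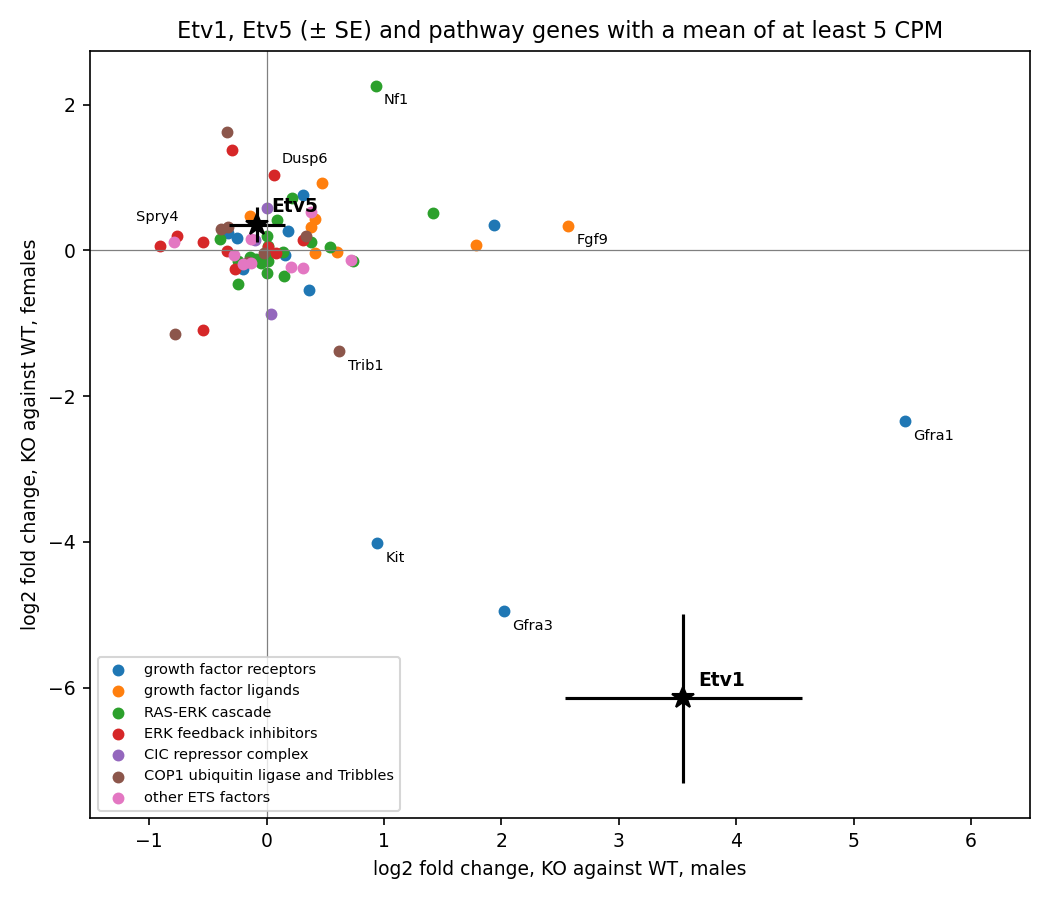
Log2 fold change of KO against WT in males (x axis) and females (y axis) for Etv1 and Etv5 (black stars, bars are ± SE) and for the listed pathway genes with a mean of at least 5 CPM (points coloured by list). Etv1 lies at 3.55 and -6.15 and Etv5 near the origin; Gfra1, Gfra3 and Kit are the receptors that lie below 0 in females and above 0 in males by the widest margins.

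Most pathway genes cluster around the origin in the plot of male against female differences, near Etv5 and far from Etv1.

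The repressor CIC and its partners were measured in all libraries. Cic stood at 61.5 and 52.5 CPM in male WT and 68.1 and 45.5 in male KO, with a log2 difference of 0.00 (SE 0.30). In females it stood at 54.3 and 48.4 CPM in WT and 94.5 and 59.5 in KO, a difference of 0.58 (SE 0.30, edgeR adjusted p = 1). Atxn1, a partner of CIC, ranged from 16.1 to 39.7 CPM with overlapping groups in both sexes. Its relative Atxn1l was lower in female KO, at 5.83 and 3.22 CPM against 7.78 and 8.92 in WT. In the female KO libraries, where Etv1 was lowest, Cic was thus above, and Atxn1l below, its female WT level.

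Of 9 genes for the COP1 ligase and the Tribbles adaptors, all tested, none passed, and the medians were -0.16 in males and -0.04 in females. Cop1 ranged from 5.2 to 9.98 CPM. Its partner Det1 ranged from 0.681 to 7.28 CPM. Trib2, a Tribbles pseudokinase, ranged from 98.1 to 192 CPM. Trib1 was lower in female KO (5.95 and 7.92 CPM) than in female WT (15 and 21.2). Cul4b, a cullin scaffold, was lower there too, at -1.15 (SE 0.72) on the log2 scale.

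Among 23 other ETS factors 14 were tested and none passed. The medians were -0.11 in males and -0.18 in females. In females 3 of 14 were positive, and 7 of 14 without female WT replicate 2. Gabpa, a widely expressed ETS activator, ranged from 33.6 to 54 CPM. Elk1, a target of ERK, was lower in male KO by -0.79 (SE 0.45), and Elf2 was higher by 0.38 (SE 0.62), without overlap. Ets2 ranged from 0.335 to 13.7 CPM and was uneven between replicates of female WT and of female KO. The repressors Erf and Etv6 ranged from 3.51 to 15.2 and from 1.39 to 9.45 CPM. Ets1, singled out after its values were seen, was low, with a mean of 1.664 CPM over the 8 libraries. Its levels were 0.206 and 0.0314 CPM in male WT and 2.31 and 6.27 in male KO. In females they were 2.01 and 1.57 CPM in WT and 0.842 and 0.0702 in KO. The KO and WT groups of Ets1 thus lay in the order of those of Etv1, without overlap in either sex. That pattern was met by 2.63% of all genes tested.

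Etv1 marks proprioceptive and other myelinated afferents, so their markers were set beside it. The summed level of 12 myelinated afferent markers was 1540 and 1350 CPM in male WT, 6030 and 2160 in male KO, 1250 and 1150 in female WT, and 1560 and 1360 in female KO. In males this sum moved with Etv1. In females the sum was higher in KO, where Etv1 was lower. The neurofilament gene Nefm made up much of it, at 713 and 685 CPM in female WT and 909 and 823 in female KO. With each tested member weighted alike, as its log2 deviation from its own mean, the order in females was reversed. The average was -0.54 and -0.11 in female WT and -0.82 and -0.9 in female KO. In males 10 of 11 tested members were positive, with a median of 1.48, and in females 6 of 11, with a median of 0.06. These male values were 7 of 11 and 0.25 without male KO replicate 1. None passed edgeR.

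Single markers of proprioceptors differed from one another. Pvalb, which encodes parvalbumin, stood at 2.71 and 1.04 CPM in male WT, 83.1 and 6.24 in male KO, 0.459 and 17.3 in female WT, and 0.509 and 0.225 in female KO. Runx3, a factor of proprioceptor identity, reached 8.93 CPM in male KO replicate 1 and stayed at or below 0.508 CPM elsewhere. Nefh, the heavy neurofilament of large axons, was at 1550 and 296 CPM in male KO and between 61.4 and 132 CPM in the other 6 libraries. Whrn, which encodes whirlin, was higher in male KO (6.17 and 2.25 CPM) than in male WT (1.68 and 0.519) and lower in female KO (0.548 and 0.365) than in female WT (1.29 and 6.73). Its male log2 difference of 1.93 was 1.03 without male KO replicate 1. Spp1, which encodes osteopontin, was at 80 CPM in male KO replicate 1 and at or below 5.23 CPM elsewhere. Male KO replicate 1, the library highest in Etv1, was thus also the highest in Pvalb, Runx3, Nefh and Spp1. In female WT replicate 2, the next in Etv1, Pvalb and Whrn were high, and Nefh (61.4 CPM) and Spp1 (0.0158 CPM) were the lowest of the series.

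The markers of C-LTMRs themselves lay the other way round from Etv1. In males 1 of 12 was positive, with a median of -0.35. Of the 12, 7 were lower in male KO without overlap, against 14.5% of all genes. In females 11 of 12 were positive, with a median of 0.17, and for the male minus the female difference 0 of 12 were. Without male KO replicate 1 the male number was 3 of 12, and without female WT replicate 2 the female number was 7 of 12. None of the 12 passed edgeR.

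The sum of 11 peptidergic nociceptor markers was 700 and 756 CPM in male WT, 1520 and 2120 in male KO, 1220 and 1990 in female WT, and 1570 and 507 in female KO. Of its 11 tested members 10 were positive in males and 9 negative in females, with medians of 1.94 and -2.37. Without male KO replicate 1 the male values were 9 of 11 and 2.51. Without overlap, 6 of the 11 were higher in male KO, against 14.5% of all genes, and 0 were lower. In female KO 8 were lower without overlap, against 15.1% of all genes, and 0 were higher. With each member weighted alike, the average log2 deviation was -0.98 and -0.38 in male WT and 1.3 and 1.64 in male KO. It was 0.42 and 1.29 in female WT and -0.47 and -2.82 in female KO, so both sexes kept the group order of Etv1. Calca, the peptide gene of these nociceptors, ran from 5.94 CPM in female KO replicate 2 to 910 CPM in male KO replicate 2. It stood at 713 CPM in female KO replicate 1, a library with almost no Etv1. The sum of 11 nonpeptidergic and pruriceptor markers was 118 and 160 CPM in male WT, 138 and 418 in male KO, 121 and 99.2 in female WT, and 160 and 69 in female KO. Of 8 tested members 7 were positive in males and 4 in females, with medians of 2.4 and 0.07. Without male KO replicate 2 the male number was 4. Mrgprd, a receptor gene of these cells, stood at 3.33 and 1.3 CPM in male WT, 37.7 and 121 in male KO, 13.1 and 1.12 in female WT, and 41.2 and 0.0421 in female KO.

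The sum of 10 vascular and fibroblast markers was 18.2 and 8.87 CPM in male WT, 73.9 and 25.1 in male KO, 39.2 and 75.1 in female WT, and 7.91 and 17 in female KO. Within each sex it lay in the same order of groups as Etv1. Of 9 tested members 9 were positive in males and 8 negative in females, with medians of 3.84 and -4.07. Leaving out male KO replicate 1 gave 5 of 9 and a median of 0.01 in males. Without female WT replicate 2, 2 members were positive in females and the median was 0. The endothelial markers Pecam1, Cldn5, Kdr and Cdh5 were at 0 in both female KO libraries and in male WT replicate 1, and were all detected in male KO replicate 1 and female WT replicate 2.

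Glial sums overlapped between groups, at 5690 and 3650 CPM in male WT, 5600 and 5750 in male KO, 5180 and 5860 in female WT, and 3420 and 6050 in female KO. Pmp22 (1640 to 3310 CPM) and Apoe (345 to 3040 CPM) held most of these sums. The glial factor Sox10 was higher in male KO (12 and 10.7 CPM) than in male WT (5.8 and 1.57) and lower in female KO (1.19 and 2.04) than in female WT (6.14 and 5.96). Of 13 tested glial markers 10 were positive in males and 11 negative in females. Without overlap, 7 of the 13 were higher in male KO, against 14.5% of all genes, and 0 were lower. In female KO 3 were lower without overlap, against 15.1% of all genes, and 0 were higher. Immune sums stayed between 11.8 and 28.6 CPM. Red blood cell sums reached 20.6 CPM in male WT replicate 2 and were below 2 CPM elsewhere. No marker of any of these lists passed edgeR. Their part in the levels of Etv1 was not tested.

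**Figure D4:**
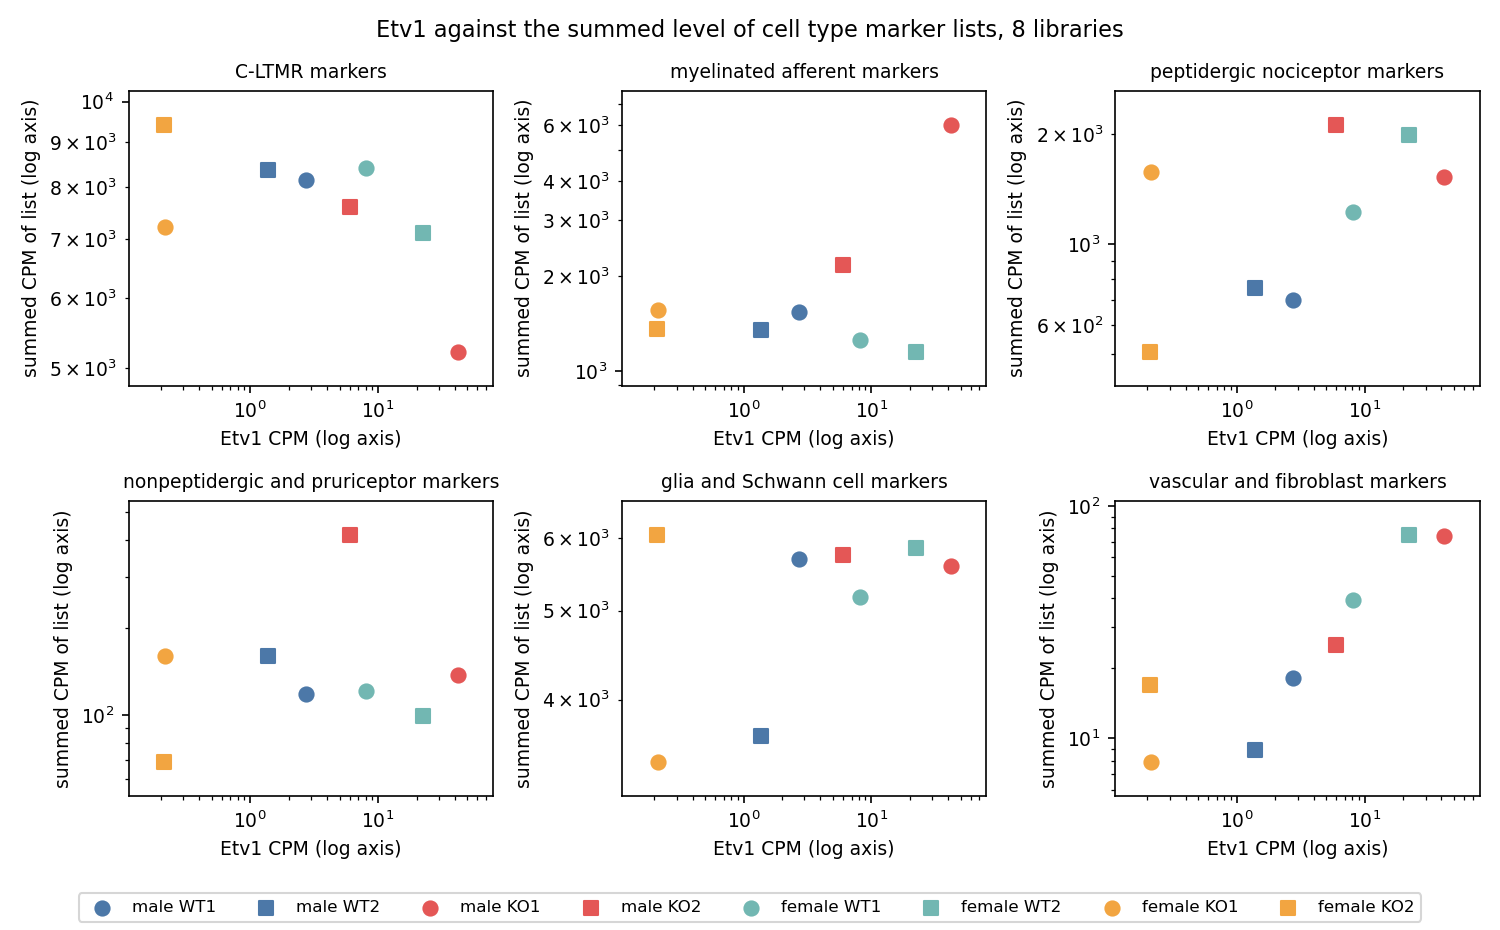
Etv1 level (CPM, log axis, x) against the summed CPM of 6 lists of cell type markers (log axis, y) in the 8 libraries; colour gives the group, circles are replicate 1 and squares replicate 2. Male KO replicate 1 is the furthest right in every panel, at 42.2 CPM of Etv1, with the lowest C-LTMR sum (5220 CPM) and the highest myelinated sum (6030 CPM).

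Across the panels, the vascular and fibroblast sum is highest in the 2 libraries highest in Etv1, and the myelinated sum is high only in the male KO libraries.

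The genes nearest to Etv1 in pattern, by Pearson correlation of log2 CPM over the 8 libraries among 11857 genes with a mean of at least 5 CPM, were Faim2 (r = 0.943), Arpp19 (r = 0.94), Trmt5 (r = 0.932), Gpr158 (r = 0.928) and S100a11 (r = 0.922). These are descriptions with no test, and the 8 points share the group structure. Faim2, a neuronal inhibitor of cell death, was nearest also in span, at 8.66 and 3.99 CPM in male WT, 68.6 and 27.8 in male KO, and 6.02 and 23.9 in female WT, and it was lowest in female KO replicate 2 at 0.885. Arpp19, a phosphatase regulator, only ranged from 79.6 to 125 CPM.

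Among the 5 genes nearest to Etv5 were Ube3c (r = 0.973), Gm16365 (r = 0.967), Ipo9 (r = 0.951) and Zfx (r = 0.946). Ube3c, a ubiquitin ligase, ranged from 37.9 to 62.5 CPM and was lowest in female WT replicate 2, as Etv5 was. Etv4 had too few reads for such a measure.

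**Figure D5:**
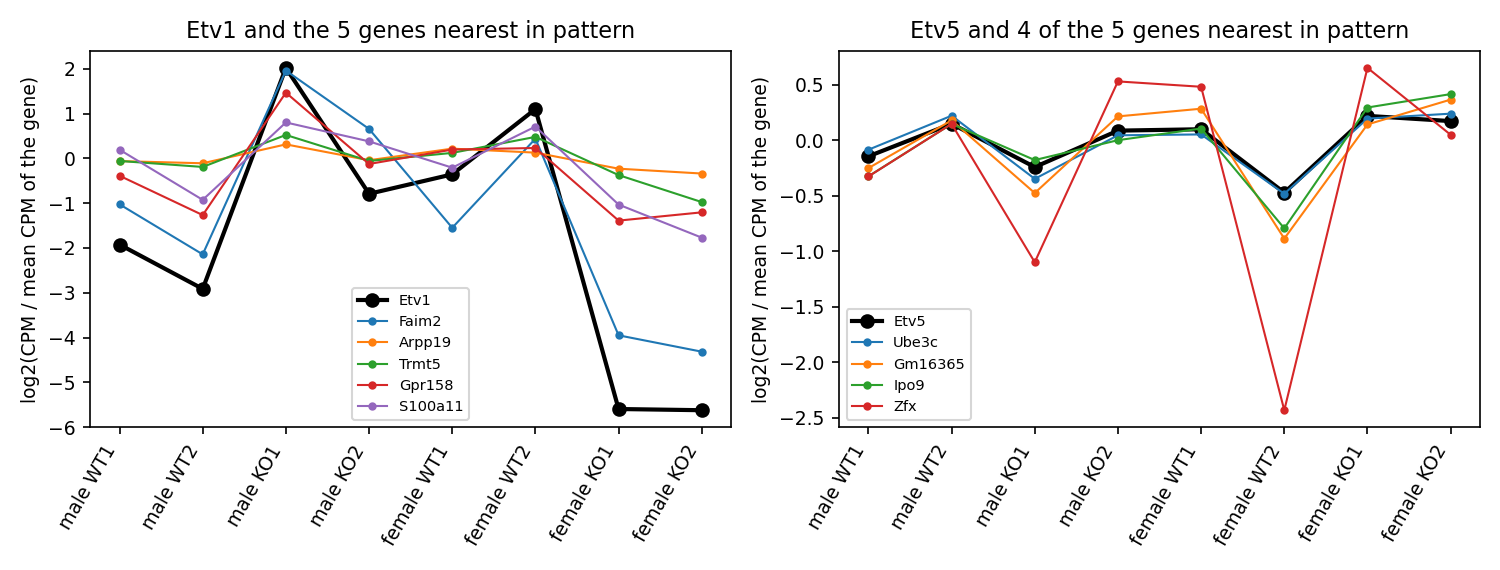
Log2 of CPM over the mean CPM of each gene in the 8 libraries, for Etv1 (left, black) and Etv5 (right, black) with the 5 genes nearest in pattern to Etv1 and 4 of the 5 nearest to Etv5 (coloured lines). Faim2 follows Etv1 over the widest span of its 5, and the lines of Etv5 share a low point in female WT replicate 2.

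The left panel spans a far wider range than the right one, and apart from Faim2 the genes near Etv1 share its direction more than its size.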

How the data were processed

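Per the labels' protocols, RNA of sorted GFP-positive C-LTMRs was turned into full-length cDNA with SMART-Seq v4, amplified for 13 PCR cycles and made into libraries with Nextera XT and 12 further cycles. Molecular identifiers are not mentioned there. The deposited table holds integer read counts (unit: count) from featureCounts 1.6.1 over Ensembl release 97 exons of GRCm38, per the file header. Counting was unstranded and gave reads that overlap several genes to each. The submitters' processing notes name bcl2fastq 2.17.1.14, DESeq2 1.14.1 and Subread 1.6.4. An aligner is not given in the sources read. The authors' deposited tables of passing genes hold, per the file headers, a mean of normalised counts (signal), a log2 fold change with its error (log2), a test statistic (score) and p-values.

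CPM values use TMM-scaled totals (factors 0.9793 to 1.022). Of 55573 genes, 22013 passed filterByExpr and were tested with edgeR 4.0.16 (quasi-likelihood, robust, two-sided) in R 4.3.3, in a fit of 4 groups over all 8 libraries with 4 residual degrees of freedom. P-values were Benjamini-Hochberg adjusted over all tested genes. They set a difference against a spread between replicates that is shared by all 4 groups, with 2 libraries each, and drawn toward that of other genes. The spread of a single group is not measured by them. Replicates differed beyond counting error, and their chi-square per degree was 102 in male WT, 283 in male KO, 132 in female WT and 182 in female KO. The biological coefficient of variation was 76.6%. DESeq2 1.42.0, other scalings, no filter, a replicate block, 1 sex at a time and single omissions were alternatives.

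The members and the gene lists were chosen with earlier results of these data known. Besides genes named in advance for their role, each pathway list gave, per comparison, genes past the threshold and up to 2 with the largest log2 difference among those whose mean reached 5 CPM and whose KO and WT libraries did not overlap. A few genes named by these rules are not reported here. Limits of 0 counts used 3 reads. Promoter windows are from RefSeq tables for GRCm38.p6. Windows held by exons are not printed.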

Additional observations from a re-analysis of the deposited data

Results flagged for a closer look

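Every male KO library lay above both male WT libraries, and every female KO library below both female WT libraries, for Etv1 and Ets1. The same held for 14 of the other genes named above. The log2 difference of Etv1 in males minus that in females was 9.69. For Etv1 this was not tested, because the gene was chosen for it.

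The difference between the sexes was 7.78 for Gfra1, 6.97 for Gfra3, 5.07 for Whrn, 3.52 for Sox10 and 0.50 for Mapk3. None of these passed edgeR (adjusted p = 0.98 for each). Gfra3 was not named in advance. It was named by rules of which 1 asks for this same pattern, so its value is a description too. The other 9 genes were named because they share the pattern of Etv1, so their values are a description. Ets1, at 7.13 (SE 2.13), was singled out after its values were seen, so it is a description as well. Among the genes ranked above Etv1 by size, Dcn was at 18.02, Ly6e at 16.42, Slc17a7 at 11.73 and Gpx3 at 10.39. Among the genes nearest to Etv1 in pattern, Faim2 was at 6.82, Gpr158 at 3.15, S100a11 at 2.54, Trmt5 at 1.34 and Arpp19 at 0.69. The pattern was met by 2.63% of all genes tested.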

How the results depend on the processing

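The number of genes passing edgeR, 1 in males and 1 in females, became 166 and 167 with the DESeq2 test, and 0 and 0 with 1 sex fitted alone or with both libraries highest in Etv1 left out. For the difference between the sexes the DESeq2 test gave 217 against 0. A fit with a replicate block called 1 gene in males, 0 in females and 0 for the difference. With the replicate block Etv1 was at 3.40 in males, -6.29 in females and 9.69 between the sexes, and Etv5 at -0.08, 0.35 and -0.43. Same-numbered libraries did not deviate together (correlations of -0.01 in males and 0 in females), so they share only a number. With both libraries highest in Etv1 left out, Etv1 was at 1.54, -5.23 and 6.78, and Etv5 at -0.02 between the sexes. Over single omissions Etv1 ran from 1.54 to 4.33 in males, from -6.70 to -5.24 in females and from 7.69 to 10.46 between the sexes. Etv5 ran from -0.27 to 0.07 in males, from 0.09 to 0.67 in females and from -0.75 to -0.18 between the sexes. The cause of these shifts was not tested. Bhlha9 missed the threshold in the settings above that called 0 genes (edgeR adjusted p from 0.0536 to 0.262). Of 3366 other values under alternatives, 2963 stayed, 389 moved, 9 passed the threshold newly, 5 missed it and 0 called values changed sign. Unscaled totals moved CPM by at most 2.11%. With 2 libraries a group, depth was not the limit for Etv5, while Etv4 lay at or near the floor of 3 reads in 6 of 8 libraries. Etv1 had only 11 and 15 reads in female KO, so counting error bears on the size of its female difference.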
